A study of Rattus norvegicus with 10 samples.

Results

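The glutathione and thioredoxin antioxidant genes examined here are 10 rat genes, Gclc, Gclm, Gsr, Hmox1, Txnrd1, Srxn1, Gpx1, Gstm1, Gstp1 and Gsta3, of 14217 genes with a probe set of their own on the array. They were taken by name, with every probe set that the platform's gene table assigns to that gene and no other. Earlier results of these data were known when the genes were chosen. All 10 were measured, by 14 probe sets, a probe set being the group of short probes that together report on a transcript. Livers came from 10 male rats aged 13 weeks, 5 on each of 2 diets. The seasoned diet contained 30 wt% instant noodle and drew 26% of its energy from fat, and the control diet was the same food without the seasonings. Both were given for 30 days at about 60 g per kg body weight daily, with feeding paired between the diets and 12 h of light per day. The seasoned rats carry the numbers 1, 4, 7, 10 and 13 and the controls 2, 5, 8, 11 and 14, and the labels name no strain. The design asks how the seasonings bear on liver transcripts, and 1 array was run per liver.

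Glutathione is a thiol tripeptide that is abundant in hepatocytes. Its synthesis starts with glutamate-cysteine ligase, an enzyme of a catalytic subunit (Gclc) and a modifier subunit (Gclm). Glutathione peroxidases spend it on peroxides, glutathione reductase (Gsr) restores it, and glutathione transferases (Gstm1, Gstp1, Gsta3) join it to reactive compounds. The thioredoxin branch runs through thioredoxin reductase (Txnrd1) and sulfiredoxin (Srxn1), which repairs overoxidized peroxiredoxins. Many of these genes are induced through the transcription factor NRF2, encoded by Nfe2l2, which binds antioxidant response elements, and so is heme oxygenase 1 (Hmox1), which breaks down heme.

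The letters of that element are shown first, because it is the sequence through which NRF2 acts on its targets. In RefSeq promoter windows of the GRCr8 assembly (250 bases before to 50 after a start), 10 windows were found for 8 of the genes, Hmox1 and Gsr being without an entry. The core letters TGACNNNGC, searched on both strands, occurred in 4 of the 10 windows, of 4 genes, and in 12.1% of all 33469 windows. The windows of Gclc, Gpx1, Gstm1 and Srxn1 and a further window each of Txnrd1 and Gsta3 held no match. Bases outside the windows were not searched. Each stretch below has 61 bases, reads 5′ to 3′ along the gene's own strand, and shows the matched letters in capitals. They lie at chr9:31154946-31155006 (+) for Gsta3, chr2:213031937-213031997 (+) for Gclm, chr7:22755948-22756008 (-) for Txnrd1 and chr1:210769732-210769792 (-) for Gstp1.
Gsta3: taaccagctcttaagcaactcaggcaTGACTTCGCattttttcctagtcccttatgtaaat
Gclm: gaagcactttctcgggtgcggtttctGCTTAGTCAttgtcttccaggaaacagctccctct
Txnrd1: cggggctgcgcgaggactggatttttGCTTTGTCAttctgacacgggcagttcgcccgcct
Gstp1: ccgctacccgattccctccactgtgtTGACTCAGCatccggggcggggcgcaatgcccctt
The match was on the reverse strand in Gclm and Txnrd1, and began at base -61 from the start in Gstp1, -172 in Gclm, -78 in Txnrd1 and -17 in Gsta3. In Gstp1 it overlapped TGANTCA, the letters of an AP-1 site, which occurred in 7.33% of all windows. These are matches of letters and not sites shown to be bound, and the windows are those of the reference, while the files give no genome build.

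The values are log2 signals with no stated summary method. Array medians lay between 6.47 and 6.48. Of 31042 probe sets, 13% had an SD above 0.01 over the 10 livers and are called varying. The rest, called near-constant, hardly differed between arrays and say little about a diet effect on their genes. Hepatocyte markers had a median level of 13.41 and brain markers, measured because the extraction text names that tissue, one of 6.19. The labels' array codes, read here as a row and a position, place every seasoned liver in row A and every control liver in row B, so that diet and row cannot be told apart. Position rises with animal number within each row. Differences are also given for the lower numbers (animals 1 to 7, 3 seasoned and 2 control) and the higher ones (animals 8 to 14, 2 seasoned and 3 control). These sets are not groups of the study, the place of the parting was found in these data, and 71.8% of varying probe sets had a lower mean in the higher numbers.

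For none of the 10 antioxidant genes did the difference between the diets pass an adjusted p of 0.05. The 95% intervals of the ratio, seasoned over control, of the 7 varying members lay between 0.684 and 1.67. By limma 0 of them passed over all 31042 probe sets, where 0% of probe sets were called, and 0 passed among the 4050 varying probe sets, where 0.321% were called (8 higher, 5 lower). In the fit over all probe sets 1 of the 7 varying members, Gstm1, had an unadjusted p under 0.05, against 12.5% of varying probe sets, and in the fit over varying probe sets its p was 0.0565. By an exact two-sided permutation test 445 varying probe sets, none of them a member's, had an unadjusted p under 0.05. That test could make no adjusted call here (0%), since 643 probe sets would have had to reach its smallest p of 0.00794 and 121 did. No varying probe set of a member had groups that did not overlap, against 2.99% of all varying probe sets. Of the 7 varying members 5 had a positive and 2 a negative difference, with a median of 0.08 log2 units, while 57.3% of the 2613 varying genes were higher with a median of 0.017. The other 3 members, Gsr, Srxn1 and Gstp1, were near-constant in all their probe sets.

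**Figure D1:**
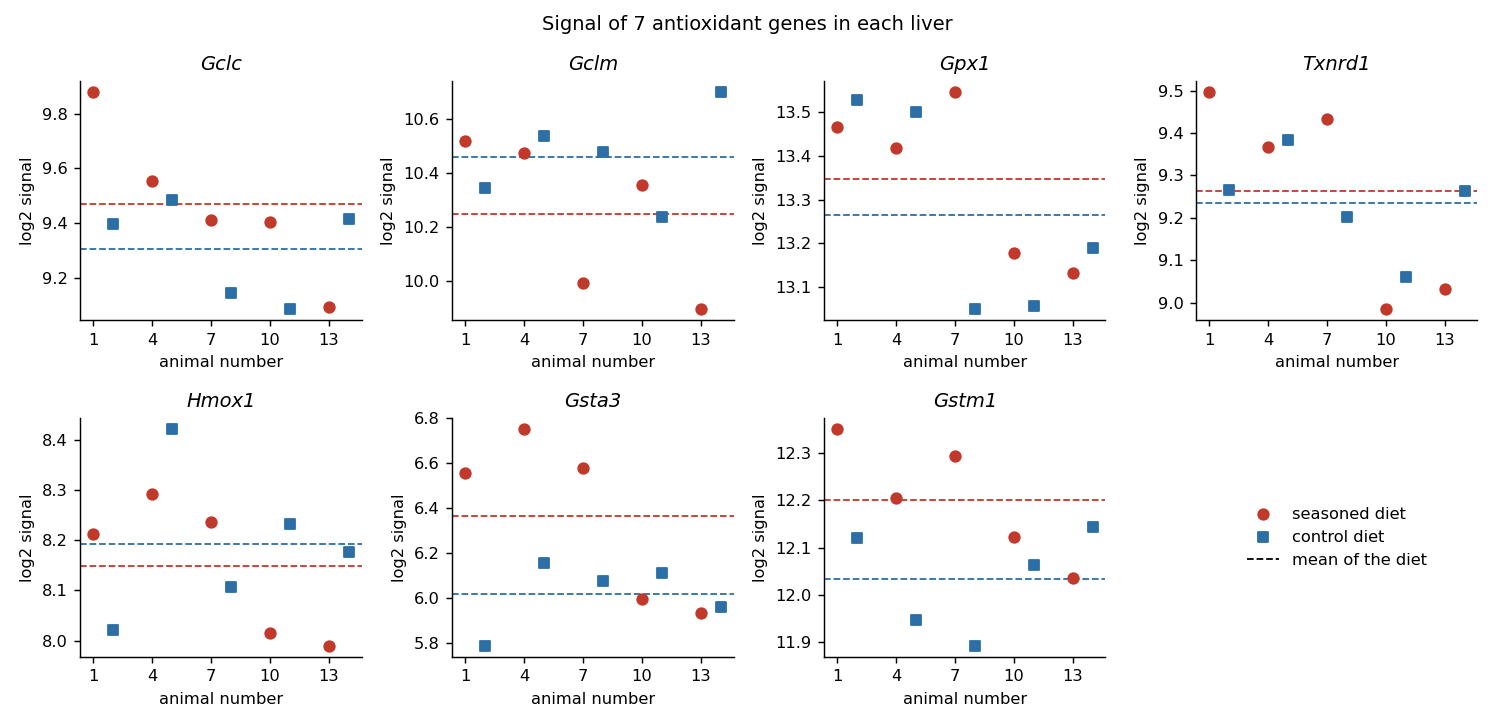
Log2 signal of the 7 varying members in each liver, by animal number, with circles for the seasoned and squares for the control diet and a dashed line at each diet's mean (highest-mean probe set of each gene, 5 livers per diet). The groups overlap in every panel, and Gpx1 is between 13.42 and 13.55 in animals 1 to 7 and between 13.05 and 13.19 in animals 8 to 14.

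Gclc, the catalytic subunit that sets the pace of glutathione synthesis, was at 9.88, 9.55, 9.41, 9.40 and 9.09 in seasoned livers 1, 4, 7, 10 and 13. In control livers 2, 5, 8, 11 and 14 it was at 9.40, 9.48, 9.15, 9.09 and 9.41. Seasoned animals 1 and 4 lay above every control and animal 13 beside the lowest. The difference was 0.16 ± 0.15 (SE, 5 livers per group), a 1.12-fold ratio with a 95% interval from 0.888 to 1.41 (adjusted p = 0.743 over varying probe sets by limma). A second probe set, with signals from 7.99 to 8.87, differed by 0.14 ± 0.17 and followed the first across the livers (Pearson r 0.955 after centring on diet, 10 livers, given as a description).

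Gclm, the modifier subunit that makes the ligase more efficient, pointed the other way. Its signals were 10.52, 10.47, 9.99, 10.36 and 9.90 in seasoned livers and 10.34, 10.54, 10.48, 10.24 and 10.70 in controls, in the same order of animals. Seasoned animals 7 and 13 lay below all controls and the other 3 among them. The difference was -0.21 ± 0.15 on the log2 scale, a ratio of 0.863 with an interval from 0.684 to 1.09 (adjusted p = 0.621 over varying probe sets by limma).

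The subunits of the ligase can be set against each other within a liver as the Gclc minus the Gclm signal. This quantity was formed after both differences had been seen and is a description without a test. It was -0.64, -0.92, -0.58, -0.95 and -0.80 in seasoned livers and -0.95, -1.06, -1.33, -1.15 and -1.29 in controls. Seasoned animal 10 and control animal 2 both stood at -0.95, and the other seasoned livers lay above all controls. How many other pairs of genes part the diets as far was not computed. The mean was -0.78 ± 0.17 (SD) with the seasoned diet and -1.15 ± 0.16 in controls, a difference of 0.38, with 0.29 in the lower and 0.38 in the higher animal numbers. The level of 1 probe set against another has no meaning here, and only the change of their distance is shown.

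Gsr, which reduces oxidized glutathione, belonged to the near-constant class. It was at 7.60 in every liver, with a range of 0.00056 over the 10 livers and a difference of 0.00019 ± 0.00011. Such a difference has no measurable size, and the table therefore says little about a diet effect on this gene.

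Gpx1, the selenium-dependent peroxidase of the cytosol, had signals of 13.46, 13.42, 13.55, 13.18 and 13.13 in seasoned livers and 13.53, 13.50, 13.05, 13.06 and 13.19 in controls. Livers of both diets were high in animals 1 to 7 and low in animals 8 to 14, with no overlap between these sets. Between the diets the difference was 0.08 ± 0.13 (interval of the ratio 0.864 to 1.3, adjusted p = 0.901 over varying probe sets by limma). From the lower to the higher animal numbers its mean shifted by -0.32 in seasoned and -0.41 in control livers, which is a description, since the parting was found in these data.

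Txnrd1, the NADPH-dependent reductase that keeps thioredoxin reduced, was at 9.50, 9.37, 9.43, 8.98 and 9.03 in seasoned livers and 9.27, 9.38, 9.20, 9.06 and 9.26 in controls. The seasoned livers held the highest and the lowest signals, with an SD of 0.24 against 0.12 in controls. The difference was 0.03 ± 0.12, with an interval of the ratio from 0.849 to 1.22 (adjusted p = 0.979 over varying probe sets by limma). It was 0.11 for the lower and -0.17 for the higher animal numbers, and -0.03 with this set as a covariate. The second probe set differed by -0.01 ± 0.11 and followed the first at an r of 0.966 after centring on diet. Srxn1, the repair enzyme of peroxiredoxins, was near-constant in all 3 of its probe sets, at 7.29, 6.49 and 5.70, with differences of 0.00016, 0.00016 and 9e-06.

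Hmox1, the inducible heme oxygenase, had signals of 8.21, 8.29, 8.24, 8.02 and 7.99 in seasoned livers and 8.02, 8.42, 8.11, 8.23 and 8.18 in controls. The control livers spanned the seasoned ones except for animals 10 and 13, which were the lowest of all. The difference was -0.04 ± 0.09, with an interval of the ratio from 0.843 to 1.12 (adjusted p = 0.943 over varying probe sets by limma). It was 0.01 without control animal 5 and 0.04 with array weights. Kupffer cells also express this gene in liver. Of 10 listed macrophage and Kupffer cell markers 7 were measured and 6 varied, 0 were called, and their mean level ranged from 8.02 to 8.74 in seasoned and from 8.20 to 8.52 in control livers. In bulk tissue, fewer cells of a type and less RNA per cell cannot be told apart.

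Gsta3, an alpha class transferase, had the widest spread of the members. It was at 6.56, 6.75, 6.58, 6.0 and 5.94 in seasoned livers and 5.79, 6.15, 6.08, 6.11 and 5.96 in controls. Seasoned animals 1, 4 and 7 lay above every other liver, while seasoned animals 10 and 13 lay among the controls. The difference was 0.35 ± 0.17, a 1.27-fold ratio with an interval from 0.965 to 1.67 (adjusted p = 0.43 over varying probe sets by limma, exact permutation p = 0.119). Most of these signals were under the array medians, so the size of the ratio is uncertain, and closely related alpha class transcripts may add to the signal. With array weights, which gave seasoned animals 1, 4 and 7 weights of 1.56, 1.7 and 2.27 and animals 10 and 13 weights of 0.575 and 0.436, Gsta3 passed among varying probe sets with a difference of 0.52 (adjusted p = 0.0437 by limma), in a fit that called 7.56% of them.

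Among animals 1 to 7 the diet difference of Gsta3 was 0.66, and among animals 8 to 14 it was -0.08. These 2 values are a description, without a test, because the parting at animal 7 was found in these data and the contrast was looked at after the values of Gsta3 had been seen. A limma fit of the contrast between the sets, added after the data had been seen, called 0% of varying probe sets. Neither its p-values nor that count is read as a result, because the parting came from the same data.

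Gstm1, a mu class transferase abundant in rat liver, was at 12.35, 12.20, 12.29, 12.12 and 12.03 in seasoned livers and 12.12, 11.95, 11.89, 12.06 and 12.14 in controls. Seasoned animals 1, 4 and 7 exceeded all controls, animal 10 lay beside the higher controls and animal 13 near their middle. The difference was 0.17 ± 0.07, a 1.12-fold ratio with an interval up to 1.26. Its unadjusted p was 0.0485 by limma over all probe sets, 0.0565 over varying ones and 0.0714 by exact permutation, and its adjusted p was 0.412 over varying probe sets. It was 0.25 in the lower and 0.05 in the higher animal numbers.

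Gstp1, the pi class transferase known in rats as a marker of preneoplastic liver foci, was near-constant at 8.18, with a range of 0.00087 over the 10 livers. Its difference of -0.00011 ± 0.00019 has no measurable size.

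**Figure D2:**
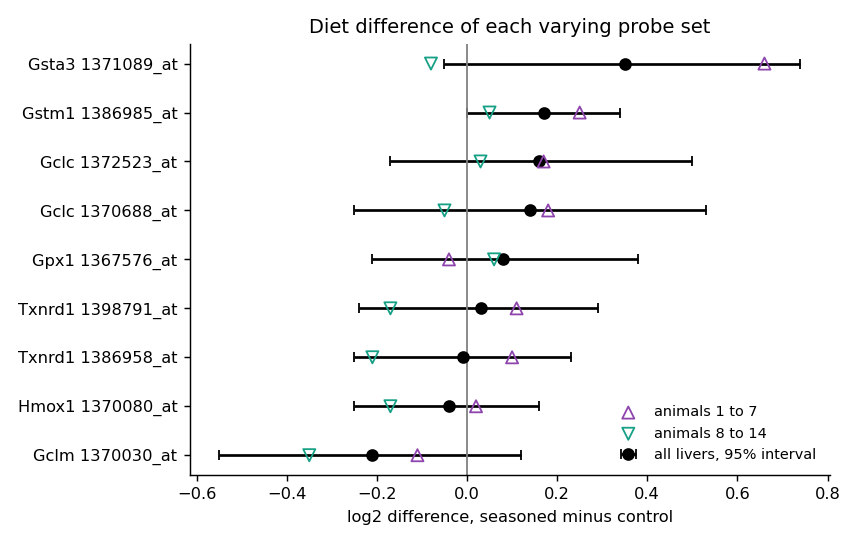
Log2 difference, seasoned minus control, of the 9 varying probe sets of the members, as filled circles with 95% intervals from limma (5 livers per diet), and within animals 1 to 7 and 8 to 14 as open triangles. The interval of Gsta3 runs from -0.05 to 0.74 and that of Gclm from -0.55 to 0.12, and the triangles of Gsta3 stand at 0.66 and -0.08.

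The variation of the members between livers of a diet was compared next. Pearson correlations were computed for 21 pairs after centring on diet, with exact permutation of livers within the diets and adjustment over the 21. For the 11 pairs with Gpx1 or Gsta3, whose livers fall into separate clusters, no pooled coefficient is given. The other 10 pairs were all positive, from 0.228 to 0.776, and 0 passed. Seasoned livers of Txnrd1 were also split, at 9.37 to 9.50 in animals 1, 4 and 7 and at 8.98 and 9.03 in animals 10 and 13. Those of Hmox1 were at 8.21 to 8.29 and at 8.02 and 7.99. Pooled coefficients with Txnrd1 or Hmox1 therefore hold that split too. Gclc and Txnrd1 had r = 0.776 (exact permutation p = 0.0122, adjusted p = 0.0856) and rho = 0.758 (adjusted p = 0.0676), with r = 0.598 without animals 1 and 13 and 0.525 after centring on diet and animal-number set. Gclc and Gclm, the ligase subunits, had r = 0.766 (exact permutation p = 0.017, adjusted p = 0.0893) and rho = 0.721 (adjusted p = 0.102), with r = 0.55 without those animals and 0.875 after centring on both.

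After centring on diet and animal-number set 14 of the 21 pairs had a positive r and 0 passed, with a smallest adjusted p of 0.613. With 144 orders the smallest p is 0.0069, and 1 pair at it would have had an adjusted p of 0.146, so this test had little room to call a pair. Centred on diet alone, 2 pairs passed, Gsta3 with Hmox1 and Gpx1 with Txnrd1, and both hold a gene with clustered livers. After centring on both, Gsta3 with Hmox1 had r = 0.862 (exact permutation p = 0.139 over 144 orders) and Gpx1 with Txnrd1 had r = 0.415 (exact permutation p = 0.424). Because array position rises with animal number, the members were also set against that number within the diets. All 7 had a negative coefficient, and 0 of these 7 relations passed. Of all varying probe sets 71.8% had a lower mean in the higher animal numbers. Without animals 1 and 13 the coefficients of Gclm and Gstm1 were positive, at 0.17 and 0.0913. The smallest unadjusted p was that of Gpx1 (exact permutation p = 0.0258, adjusted p = 0.1), whose coefficient is not given because its livers fall into the 2 sets described above. Gclc had r = -0.695 (exact permutation p = 0.0358, adjusted p = 0.1) and rho = -0.615 (adjusted p = 0.204), with r = -0.396 without animals 1 and 13. For Txnrd1 r was -0.693 (exact permutation p = 0.0431, adjusted p = 0.1) and rho was -0.714 (adjusted p = 0.125), with r = -0.495 without the same animals. The split of its seasoned livers enters these coefficients.

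The wider pathway was read from 8 lists that exclude the members. Of 96 measured genes 43 varied, and 0 were called among varying probe sets by limma. Of the 43, 35 (81.4%) had higher signals with the seasoned diet, against 57.3% of all varying genes. An unadjusted p under 0.05 was found for 7 of them (16.3%, 5 higher and 2 lower), against 11.8% of all varying genes. The median difference of the 43 was 0.08, against 0.017 for all varying genes. The counts go by sign alone, also where the difference was tiny, as for Me1 (0.01), Gsto1 (0.01) and Cul3 (-0.01). The counts of 35 and of higher members in each list below were the same after a further quantile normalization and after median centring. These are counts without a test of the lists. For single genes below, unadjusted p-values are from the limma fit over all probe sets and adjusted ones from that over varying probe sets. Over all probe sets the adjusted p-values of Tkt, Ppox and Sqstm1 were 0.8501, 0.8685 and 0.899 by limma.

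**Figure D3:**
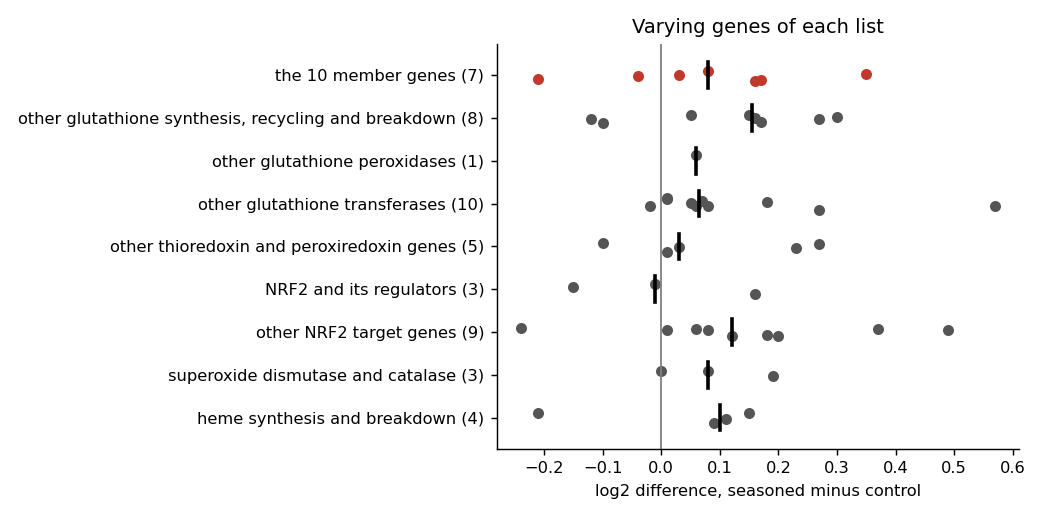
Log2 difference, seasoned minus control, of the varying genes of each list (highest-mean probe set, 5 livers per diet), with the number of varying genes in brackets and a vertical bar at each median. The members, in red, have a median of 0.08, and none of the 43 genes of the other lists was called.

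Among other genes of glutathione synthesis and turnover, 8 of 14 varied and 6 of the 8 were higher. Cth, which makes cysteine from cystathionine, differed by 0.30 ± 0.11 (unadjusted p = 0.0283, adjusted p = 0.278 over varying probe sets by limma), with 0.13 in the lower and 0.34 in the higher animal numbers. Anpep, a peptidase that acts on the breakdown products of glutathione, differed by 0.27 ± 0.12. Gss, which completes glutathione, and Slc7a11, the cystine importer, were near-constant. Among other peroxidases only Gpx4, which acts on lipid peroxides, varied, at 11.22 in seasoned and 11.16 in control livers.

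Other transferases had higher signals in 9 of 10 varying members, with a median difference of 0.06. Gstt2 and Gsto1 count among the 9 with differences of only 0.01. Gstt3, a theta class transferase, had its highest signals in the same seasoned animals as Gsta3, with 10.76, 10.76 and 10.10 in animals 1, 4 and 7 against 9.49 and 9.55 in animals 10 and 13. Controls lay between 9.28 and 9.88. Its difference was 0.57 ± 0.29 (adjusted p = 0.414 over varying probe sets by limma), with 1.08 in the lower and -0.11 in the higher animal numbers. Gstm2, a mu class relative of Gstm1, differed by 0.18 ± 0.09, and its highest signal, 11.33, was in seasoned animal 10.

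**Figure D4:**
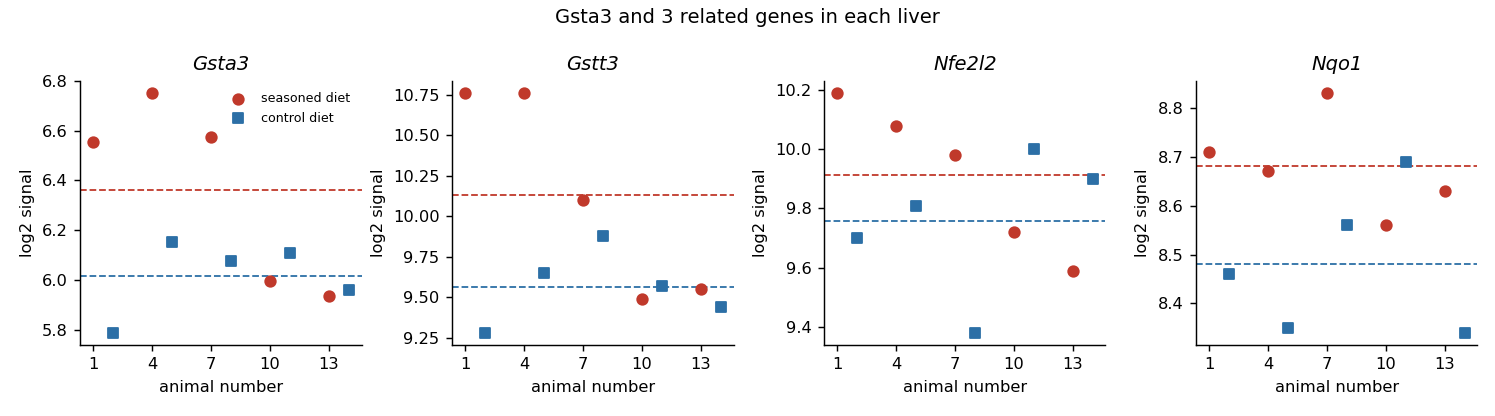
Log2 signal of Gsta3, Gstt3, Nfe2l2 and Nqo1 in each liver by animal number, with circles for the seasoned and squares for the control diet and dashed lines at the diet means (5 livers per diet). Seasoned animals 1, 4 and 7 hold the highest signals of Gsta3 (6.56 to 6.75) and Gstt3 (10.10 to 10.76), while for Nqo1 control animal 11, at 8.69, lies among them.

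Of 17 measured thioredoxin and peroxiredoxin genes 5 varied, against 2613 of 14217 genes on the array, and 4 of the 5 were higher. Sesn1 and Sesn2, stress-responsive sestrins, differed by 0.27 ± 0.19 and 0.23 ± 0.18. Txn1, thioredoxin itself, was near-constant at a mean of 11.92.

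Of NRF2 and its regulators 3 of 9 varied. Nfe2l2 was at 10.19, 10.08, 9.98, 9.72 and 9.59 in seasoned livers and 9.70, 9.81, 9.38, 10 and 9.90 in controls, a difference of 0.16 ± 0.15 (adjusted p = 0.768 over varying probe sets by limma). For the lower and higher animal numbers it was 0.33 and -0.10. Sqstm1, an autophagy receptor that binds the NRF2 inhibitor KEAP1, differed by -0.15 ± 0.05 (unadjusted p = 0.0164, adjusted p = 0.329), and all seasoned livers lay below the control median. Keap1 was near-constant.

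Among other NRF2 targets 9 of 17 varied and 8 of these were higher. Tkt, transketolase of the pentose phosphate pathway, differed by 0.37 ± 0.12 (unadjusted p = 0.0112, adjusted p = 0.171 over varying probe sets by limma), with 0.27 and 0.38 within the lower and higher animal numbers. Nqo1, the quinone reductase often used to read NRF2 activity, was at 8.71, 8.67, 8.83, 8.56 and 8.63 in seasoned livers and 8.46, 8.35, 8.56, 8.69 and 8.34 in controls. It differed by 0.20 ± 0.08 (unadjusted p = 0.0344, adjusted p = 0.339), with 0.33 and 0.06 within the sets. The lower one was Abcc2, a transporter that exports glutathione conjugates into bile, named here after its values had been seen. It was at 9.68 ± 0.16 (SD, n = 5) in seasoned and 9.91 ± 0.17 in control livers, a difference of -0.24 ± 0.10 (unadjusted p = 0.0426, adjusted p = 0.341 by limma), with -0.16 and -0.27 within the sets.

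In the superoxide dismutase and catalase list 3 of 5 varied. Sod2, the mitochondrial dismutase, differed by 0.19 ± 0.06 (unadjusted p = 0.0179, adjusted p = 0.288 over varying probe sets by limma), with 4 of 5 seasoned livers above every control. Sod1, the cytosolic form, differed by 0.08 ± 0.06, and Cat, catalase, was near-constant. In the heme list, which covers the substrate of Hmox1, 4 of 11 varied. Ppox, a late enzyme of heme synthesis, differed by 0.15 ± 0.05 (unadjusted p = 0.0133 over all and adjusted p = 0.312 over varying probe sets by limma). Alas1, its first and regulated enzyme, differed by -0.21 ± 0.21, with -0.33 in the lower and 0.03 in the higher animal numbers.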

How the data were processed

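The deposited values are log2 signals, 1 for each probe set of an Affymetrix rat array in each liver. The authors' summary and normalization are not given in the sources used here, and the log2 base was read from the values (4.79 to 14.34). The number of arrays limits the precision. Per the labels' protocols, 100 ng of total RNA per liver went into cRNA synthesis. Controls (57) were left out. The platform's table names 20826 probe sets with 1 gene, 436 with several and none for 9780. Symbols were updated through RefSeq gene identifiers. The probe set with the highest mean stood for a gene.

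Diets were compared with limma 3.58.1 (R 4.3.3, lmFit and eBayes, two-sided) over 31042 probe sets, and again over the 4050 with an SD above 0.01, with Benjamini-Hochberg adjustment. Differences, errors and, unless stated, unadjusted p-values are from the first fit, and adjusted p-values of single genes are from the second. Exact permutation used 252 assignments, with a smallest p of 0.00794. Fits were checked on simulated data. Members and lists were chosen with earlier results of these data known. From each list, genes called among varying probe sets and the 2 varying genes with the smallest p are named, and Gss, Slc7a11, Txn1, Keap1, Cat and Abcc2 were added after their values had been seen. Animals are numbered separately, so p-values rest on the spread between livers of different rats. That spread also holds array position, and the diet difference cannot be told apart from array row.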

Additional observations from a re-analysis of the deposited data

Results flagged for a closer look

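In 48 groups of 5 livers (the varying probe sets of the members and the named list genes, for each diet), 2 had an extreme liver separated from the next by more than 0.71 of the range, where chance gives about 2.4. Neither was a member. Control animal 14 was high for Alas1, at 10.03 against 9.38 to 9.46 in the other controls (ratio 0.8758). Control animal 5 was high for Anpep, at 9.27 against 8.81 to 8.95 (ratio 0.7104).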

How the results depend on the processing

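The count of 0 members called over all probe sets was the same in every alternative run, including those without each liver and with adjustment over varying probe sets, except that array weights together with the restriction to varying probe sets called Gsta3. The permutation test also gave 0, but could not have called a member. Over all probe sets the count of calls went from 0 to 10 without control animal 11 and was 0 elsewhere (0 to 10 with each liver left out). Among varying probe sets the count of 13 went to 306 with array weights, 4 with 1 probe set per gene and 22 with the animal-number set as a covariate, and ranged from 0 to 84 with each liver left out (0 without seasoned animals 1, 4 or 7 or control animal 14, and 84 without control animal 11). Hmox1 changed sign with array weights (0.04) and, among livers left out, ranged from -0.09 to 0.01. Txnrd1 changed sign with the animal-number set (-0.03) and ranged from -0.03 to 0.10, being -0.02 without seasoned animal 7 or control animal 11. Gstp1, near-constant, was at 7.9e-05 with array weights. Other members kept their sign in all alternatives run, but with single livers left out Gclc ranged from 0.06 (without seasoned animal 1) to 0.26, Gclm from -0.28 to -0.12 (without seasoned animal 13) and Gpx1 from 0.03 (without control animal 8) to 0.15, and Gpx1 was at 0.0096 with the animal-number set. Centred on diet and animal-number set, Gstm1 had r = -0.0042 with Txnrd1 and -0.378 with Hmox1. The causes were not tested. Gsta3 had no value with the filter on dim probe sets. The diets share no animal number and the labels name no pairs of rats. A replicate block of adjacent numbers (1 with 2, 4 with 5 and so on), chosen after the data had been seen, called 0 over all and 3 among varying probe sets, and 0 members (smallest adjusted p 0.361 by limma, Gsta3). Adjacent rats' deviations from the diet means correlated at -0.00636 to 0.195 over varying probe sets, and 2 of 5 seasoned rats correlated best with their neighbour. These values cannot decide whether the numbers pair the rats, and feeding was paired between the diets. The main comparison used no pairs because the labels name none. Of 7 varying members 0 had 1 sign in all 5 couples, against 12.1% of varying genes. Of 43 list genes 9 (20.9%) did. Among them Tkt (0.18 to 0.64), Anpep (0.15 to 0.45) and Cth (0.03 to 0.72) were higher in each couple, and Alas1 was lower (-0.55 to -0.06). Gclc minus Gclm, formed after both differences had been seen, was higher in each couple by 0.14 to 0.75. That is a description without a test, and no share over other pairs of genes was computed.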
